A study of Mus musculus with 4 samples.

Results

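The endothelial cells (ECs) of KPC pancreatic tumor grafts are described across 4 conditions. They were selected by a marker rule on their own counts: at least 200 genes detected, and at least 3 of 10 endothelial genes (Pecam1, Cdh5, Kdr, Emcn, Plvap, Egfl7, Esam, Tie1, Flt1 and Cldn5). The rule also required 0 unique molecular identifiers (UMIs) of Ptprc, a leukocyte gene, and of Pdgfra, a fibroblast gene, and fewer than 4 of 7 epithelial genes (Krt7, Krt8, Krt18, Krt19, Epcam, Cldn4 and Cldn7). In all, 792 of 44554 cells met it. These counts chose the cells, so the levels of these 19 genes and of the clusters are given as description.

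KPC cells, a mouse pancreatic ductal carcinoma line, were grafted into the pancreas of obese mice on a high-fat diet, all C57BL/6 and labelled as 7 months old, although the study's methods give an older age. Pdgfrb-TK mice carry a viral thymidine kinase driven by the Pdgfrb promoter, which is active in pericytes and fibroblasts, so that dividing Pdgfrb-expressing cells die when ganciclovir (GCV) is given. Pdgfrb-TK mice received GCV (Pdgfrb-TK/GCV) or PBS (Pdgfrb-TK/PBS), and wild-type mice received D-CAN, a peptide that targets adipose stromal cells and related fibroblasts, or PBS (WT/PBS). Tumors were pooled by treatment into 1 droplet scRNA-seq library per condition, and with 1 library on each side no difference could be set against the spread between mice or tested. GCV was compared with Pdgfrb-TK/PBS and D-CAN with WT/PBS. All intervals are at 95% and cover counting error only, not the spread between mice. Since the labels' protocol text concerns nuclei from a different tissue, conditions were read from the sample titles.

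ECs line blood and lymphatic vessels. Tip cells lead new sprouts toward VEGF, arterial and venous cells line the larger vessels, and capillary cells exchange gas and nutrients, including fatty acids taken up through Cd36 and Fabp4. ECs recruit pericytes with PDGF-B, receive signals back through Tie2 and other receptors, and admit leukocytes by displaying selectins, adhesion molecules and chemokines. In tumors, vessels are often poorly covered by mural cells and leaky.

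The label was checked against 24 endothelial genes that the rule did not use, among them Tek, Eng, Erg, Sox18, Robo4 and Cd93. Throughout, a series of 4 values without labels follows the order Pdgfrb-TK with GCV, Pdgfrb-TK with PBS, wild type with D-CAN and wild type with PBS. Cells at the edge of the rule carried few of these 24. Those with exactly 3 rule genes had a median of 2, 3, 2 and 2 of the 24. Their median depth differed widely, at 22016, 901, 13004.5 and 4208 UMIs, so these counts are not alike between libraries. Cells just outside the rule, with 2 rule genes, numbered 195, 71, 175 and 214, and had a median of 1, 1, 2 and 1 of the 24. Among the clusters of the rule cells, clusters 5, 10 and 11 also went against the label, since their median cell detected only 3 rule genes. Cluster 5 held 89 cells, had a median of 25622 UMIs and was led by Klhl1, Tenm4 and Lingo2. Cluster 10 held 26 cells and was led by the pericyte genes Higd1b, Myh11, Des and Rgs5, with 14 of 14 pericyte markers detected. Here and below, a marker is detected in a cluster when at least 10% of its cells hold a UMI of it. Cluster 11 held 16 cells and was led by Serpinb2, Prg4, Pappa and Smoc2, with 13 of 14 fibroblast markers detected. A core set was therefore drawn after these values were seen: rule cells with at least 5 of the 10 rule genes, outside clusters 5, 10 and 11. It holds 560 of the 792 cells, and 35, 106, 83 and 336 cells by library. At least 5 of the 24 genes were detected in 97.1%, 96.2%, 95.2% and 97.6% of the core cells. Leukocytes of the same libraries were chosen by a UMI of Ptprc, but also by detecting fewer than 3 of the 10 rule genes. In them the share with at least 5 of the 24 genes was 0.279% or less in every library. The limit on rule genes made a low share likely, so it is no separate check of the label.

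The choice of cells bears on every expression value. Rule cells outside the core gave 67.9%, 39.8%, 67.9% and 38.5% of the UMIs of the rule cells. Their median depth was 15131.5, 1216, 16928.5 and 5221 UMIs. In them the 24 endothelial genes summed to 534, 1833, 582 and 764 per 1000000 UMIs, so the cells left out of the core differed between libraries. Over all rule cells, the 24 endothelial genes had a median log2 ratio of -0.74 after GCV and -0.70 after D-CAN. In the core cells these medians were 0.10 and 0.17. Expression is therefore given for the core cells, as counts per 1000000 UMIs summed over the cells of a library (CPM).

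The rule cells numbered 63 with GCV and 151 with PBS in Pdgfrb-TK mice, and 131 with D-CAN and 447 with PBS in wild-type mice. Their share of all cells kept was 0.513% (0.394 to 0.656) of 12280 cells for Pdgfrb-TK/GCV and 1.44% (1.22 to 1.69) of 10469 cells for its control, and 1.29% (1.08 to 1.53) of 10178 cells for D-CAN and 3.84% (3.50 to 4.21) of 11627 cells for WT/PBS, by exact Clopper-Pearson intervals. Each treated library had the smaller share of its pair: 2.81-fold (2.08 to 3.83) lower after GCV and 2.99-fold (2.45 to 3.66) lower after D-CAN, by exact conditional binomial intervals. The shares of core cells were 0.285% (0.199 to 0.396) with GCV and 1.01% (0.830 to 1.22) with PBS in Pdgfrb-TK mice, and in wild-type mice 0.815% (0.650 to 1.01) with D-CAN against 2.89% (2.59 to 3.21) with PBS. These were 3.55-fold (2.40 to 5.37) lower after GCV and 3.54-fold (2.78 to 4.56) lower after D-CAN. The rule cells outside the core, of which 32.1% to 45.0% by library carried at least 5 of the 24 endothelial genes, were also a smaller share, 1.89-fold (1.15 to 3.14) after GCV and 2.02-fold (1.43 to 2.90) after D-CAN.

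The PBS libraries differed from each other by nearly as much as a treated library from its control. Pdgfrb-TK/PBS had a rule-cell share 2.67-fold (2.21 to 3.23) lower than WT/PBS. Set against Pdgfrb-TK/PBS, the share of D-CAN was 1.12-fold lower, with an interval that crosses no change (0.881 to 1.43). The lower share after D-CAN thus rests on the WT/PBS library. Set against WT/PBS, the share of Pdgfrb-TK/GCV was 7.49-fold (5.75 to 9.92) lower. The model, the mice and the library cannot be told apart here, and a share also moves when other cell types become more or less frequent.

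**Figure D1:**
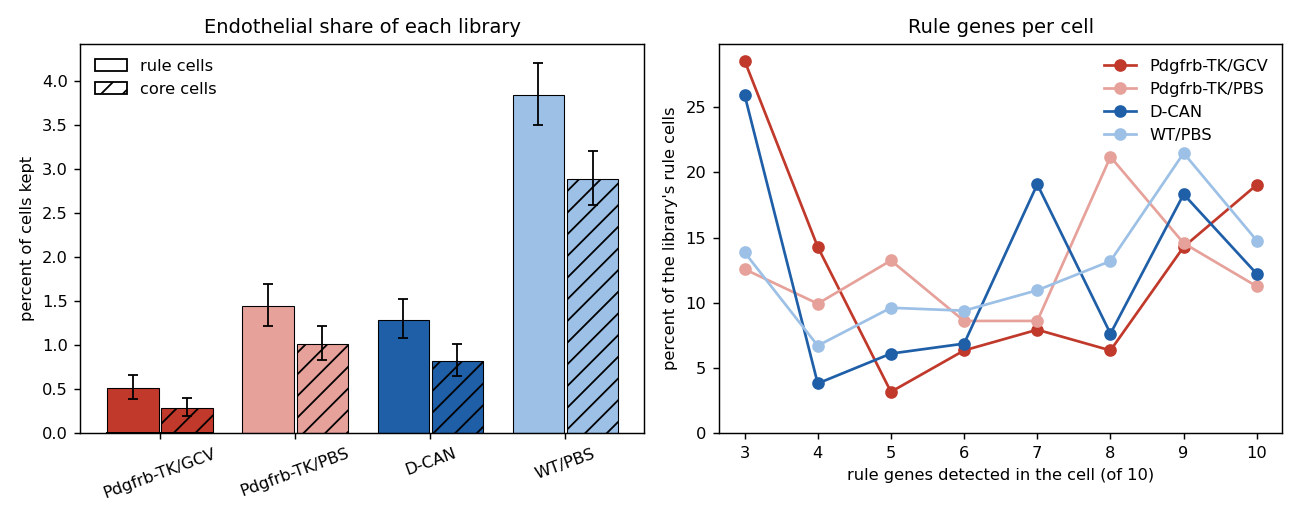
Left, percent of the kept cells of each library that met the endothelial rule (plain bars) or belong to the core (hatched bars), with exact 95% intervals for counting error. Right, percent of each library's rule cells by the number of the 10 rule genes detected: cells with 3 rule genes are 18 of 63 in Pdgfrb-TK/GCV and 34 of 131 in D-CAN, a larger part than in either PBS library.

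Depth differed between libraries. A core cell had a median of 5273, 2502.5, 7480.0 and 5154.5 UMIs, and the summed UMIs were 225042, 331224, 704314 and 2481399. The Pdgfrb-TK/GCV values thus rest on the fewest cells and UMIs. The median mitochondrial share of a core cell was 3.66%, 2.42%, 2.04% and 3.18% in the same order. Of 196 barcodes found in more than 1 library, 5 belonged to a rule cell in at least 1 library and 0 to a rule cell in more than 1. RNA of tumor cells was present among the ECs: Tff1, a trefoil factor of the epithelium, was at 116 CPM with GCV and 791 CPM with PBS in Pdgfrb-TK mice and 25.6 CPM with D-CAN and 95.5 CPM with PBS in wild-type mice in core cells, and was detected in 96 of the 106 core cells of Pdgfrb-TK/PBS. In all cells outside the rule Tff1 was at 1134 CPM, 5862 CPM, 622 CPM and 1787 CPM, with the same library highest. Summed over 16 tumor cell markers, the core cells held 595, 1796, 322 and 547 CPM, but 7 of these are the epithelial genes that the rule limited. The other 9 summed to 196, 1023, 189 and 185 CPM.

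The rule cells fell into 11 clusters, which the libraries did not share evenly. Cluster 1 (135 cells, led by Hbb-bs, the tip cell gene Apln, Gm5127 and Cxcl9) held 29 of the 63 rule cells after GCV and 66 of 151 in its control, and 39 of 131 after D-CAN and 1 of 447 in WT/PBS. Clusters 2 and 3 came almost wholly from WT/PBS. Cluster 2, with 127 of its 134 cells from that library, was venous-like, with Ackr1, Selp and Sele among its leading genes. It was also led by Csf3, Cxcl10 and Icam1. It had 9 of 12 venous markers detected at a median of 7199 UMIs. Clusters 1 and 3 had 7 each, at medians of 3325 and 3305 UMIs, so this count alone does not set cluster 2 apart. Cluster 3, with 107 of 111 cells from WT/PBS, was led by Gm12002, Xdh, Zbtb16 and Col13a1 and was left unnamed.

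Cluster 6 was arterial-like (66 cells, 13 arterial markers detected, led by Sema3g, Gja4 and Stmn2) and held 5, 33, 9 and 19 cells by library. Clusters 7 and 9 were lymphatic-like, each with 9 lymphatic markers detected. Cluster 7 (57 cells, with Ccl21a among its leading genes) had 51 of its cells from WT/PBS, and cluster 9 (26 cells, led by Mmrn1 and Prox1) had 22 from D-CAN. Pdgfrb-TK/GCV gave 0 cells to cluster 7 and 1 to cluster 9. Cluster 8 (29 cells, led by Mki67, Kif11 and Cenpe) held proliferating cells, 2, 4, 6 and 17 by library. Cluster 4 (103 cells) had the lowest depth, a median of 1634 UMIs, and was left unnamed. A cluster mostly of 1 library may be that library and not a kind of EC, and since its defining genes also differ between conditions, no difference in cluster size is drawn from these counts.

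**Figure D2:**
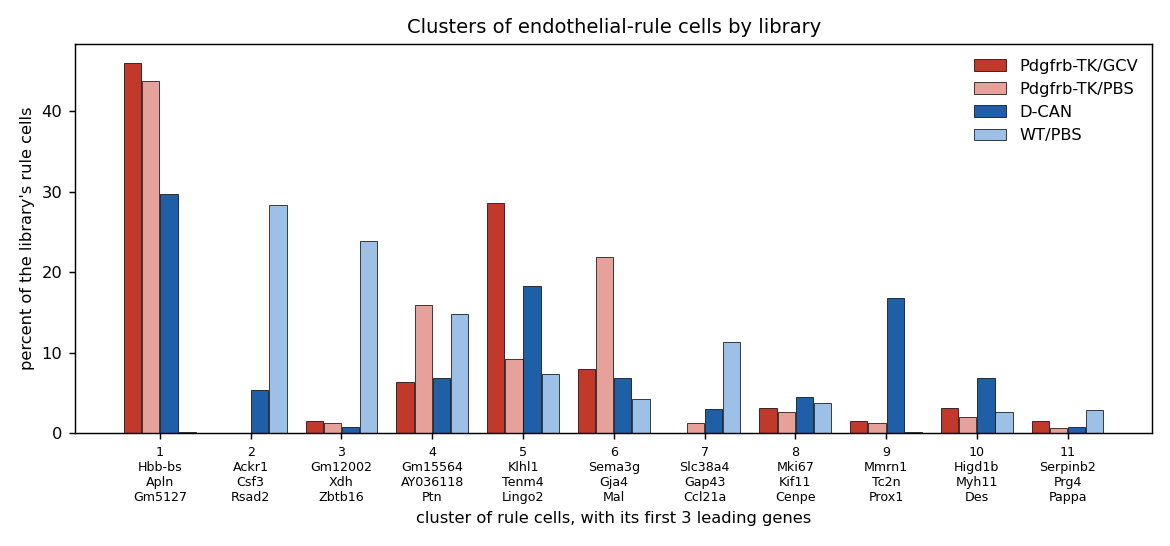
Percent of each library's rule cells in each of the 11 clusters, with the first 3 leading genes of each. Cluster 1 is filled by Pdgfrb-TK/GCV, Pdgfrb-TK/PBS and D-CAN and holds 1 cell of WT/PBS, while clusters 2, 3 and 7 are filled by WT/PBS.

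The genes of the rule are given for the core as description. Cdh5, the VE-cadherin of endothelial junctions, was at 1093 CPM with GCV and 1089.9 CPM with PBS in Pdgfrb-TK mice and 848 CPM with D-CAN and 729.8 CPM with PBS in wild-type mice. Pecam1, the junctional adhesion molecule CD31, was at 1119.8 CPM with GCV and 1147 CPM with PBS in Pdgfrb-TK mice and 957 CPM with D-CAN and 877 CPM with PBS in wild-type mice. Both moved little within a pair, Cdh5 with ratio intervals of 0.85 to 1.18 for GCV and 1.06 to 1.27 for D-CAN, and both genes were a little higher in the Pdgfrb-TK libraries. Cldn5, a tight junction claudin, was at 222 CPM with GCV and 459 CPM with PBS in Pdgfrb-TK mice and 403 CPM with D-CAN and 359 CPM with PBS in wild-type mice, lowest after GCV, where it was 2.07-fold (1.49 to 2.9) lower. Flt1, the decoy receptor for VEGF-A, was at 1715 CPM with GCV and 2482 CPM with PBS in Pdgfrb-TK mice and 1002 CPM with D-CAN and 1485 CPM with PBS in wild-type mice, 1.45-fold lower after GCV and 1.48-fold lower after D-CAN. Kdr, the main signaling receptor for VEGF-A, was at 627 CPM with GCV and 706 CPM with PBS in Pdgfrb-TK mice and 412 CPM with D-CAN and 374 CPM with PBS in wild-type mice, and its intervals crossed no change in both pairs. Emcn, a sialomucin of capillaries and veins, was at 1089 CPM with GCV and 869.5 CPM with PBS in Pdgfrb-TK mice and 557 CPM with D-CAN and 908 CPM with PBS in wild-type mice, lowest in D-CAN.

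Genes enriched in the rule cells in every library, and not used by the rule, include receptors and lipid-handling proteins of the endothelium, and are given as description. Taking the smallest fold over the other cells in any of the 4 libraries, the first were Adgrl4 (107-fold), Cyyr1 (97.4-fold), Gpihbp1 (88.1-fold), Ldb2 (69.3-fold), Prex2 (64.5-fold) and Adgrf5 (64.5-fold). Gpihbp1 is the capillary protein that holds lipoprotein lipase. Others among the first 20 were Ptprb, the phosphatase of VE-cadherin and Tie2, Angpt2, Mcam, Cd93, Fabp4 and Eng.

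Relative to Pdgfrb-TK/PBS, 9 of 13 measured genes for signals to mural cells were at least 2-fold higher in core ECs after GCV. So were 4 of 14 tip cell genes, while 4 of 10 capillary genes were at least 2-fold lower. Of 4916 genes with at least 20 UMIs over the pair, 266 (5.41%) were at least 2-fold higher and 266 (5.41%) at least 2-fold lower, and the median log2 ratio of all of them was -0.03. Over all rule cells these were 591 (7.55%) and 577 (7.37%) of 7832 genes. The comparison asks how ECs differ when dividing Pdgfrb-expressing cells are depleted. Cluster 1 held the most rule cells in both libraries of the pair, and the arterial-like cluster 6 held 5 of 63 cells after GCV and 33 of 151 in the control.

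Of 15 tip cell genes 14 reached 20 UMIs, 4 were at least 2-fold higher and 0 at least 2-fold lower, with a median log2 ratio of 0.41. Among all rule cells the median was -0.11, with 3 of 15 at least 2-fold higher and 2 at least 2-fold lower. Esm1 (endocan, chr13:113209659-113218098 in GRCm38), a secreted proteoglycan induced by VEGF, was at 1511 CPM with GCV and 235 CPM with PBS in Pdgfrb-TK mice and 307 CPM with D-CAN and 120.1 CPM with PBS in wild-type mice. Pdgfrb-TK/GCV stood above the other 3 libraries, 6.42-fold (5.0 to 8.31) higher than Pdgfrb-TK/PBS. Apln, the apelin peptide made by sprouting tip cells, was at 938 CPM with GCV and 199 CPM with PBS in Pdgfrb-TK mice and 209 CPM with D-CAN and 7.66 CPM with PBS in wild-type mice, 4.71-fold (3.55 to 6.3) higher after GCV. Its receptor Aplnr ran the other way, at 88.9 CPM with GCV and 441 CPM with PBS in Pdgfrb-TK mice and 200.2 CPM with D-CAN and 131 CPM with PBS in wild-type mice, 4.96-fold (3.1 to 8.36) lower after GCV. Angpt2, the Tie2 ligand that loosens the contact between ECs and pericytes, was at 769 CPM with GCV and 199 CPM with PBS in Pdgfrb-TK mice and 311 CPM with D-CAN and 221 CPM with PBS in wild-type mice, 3.86-fold (2.89 to 5.2) higher. Adm, the vasodilator adrenomedullin, was the other member past 2-fold, at 178 CPM against 60.4 CPM. The remaining tip cell genes were within 2-fold: Dll4, the Notch ligand of tip cells, was at 142 CPM against 127 CPM, and Pdgfb, the pericyte-recruiting ligand, at 307 CPM against 235 CPM, both with intervals that cross no change. Against WT/PBS the tip cell median of Pdgfrb-TK/GCV was 1.17, with Esm1 at 3.64 and Apln at 6.76. Tek, the Tie2 receptor, was 1.98-fold (1.24 to 3.26) lower.

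The list of signals from ECs to mural cells had the highest median of all lists after GCV. Of 18 genes 13 reached 20 UMIs, 9 of these were at least 2-fold higher and 0 at least 2-fold lower, with a median log2 ratio of 1.78. The median was 1.11 over all rule cells (10 of 18 at least 2-fold higher), and the list was also higher outside the ECs, at 0.97 in epithelial cells (8 of 18), 0.61 in leukocytes (7 of 17) and 0.18 in fibroblasts (3 of 15). Outside the rule Ccn1 was at 115 CPM against 21.9 CPM and Edn1 at 5.02 CPM against 1.2 CPM. Edn1, the vasoconstrictor endothelin-1, was at 409 CPM with GCV and 39.2 CPM with PBS in Pdgfrb-TK mice and 133 CPM with D-CAN and 63.7 CPM with PBS in wild-type mice, 10.4-fold (5.8 to 20.3) higher after GCV. Ccn2 (CTGF), a matricellular target of YAP and TGF-β, was at 711 CPM with GCV and 157 CPM with PBS in Pdgfrb-TK mice and 243 CPM with D-CAN and 91.9 CPM with PBS in wild-type mice, 4.53-fold (3.29 to 6.32) higher. Ccn1 (CYR61) was at 311 CPM with GCV and 39.2 CPM with PBS in Pdgfrb-TK mice and 371 CPM with D-CAN and 143 CPM with PBS in wild-type mice, so Pdgfrb-TK/PBS was low while Pdgfrb-TK/GCV and D-CAN were alike. Cxcl12, the ligand of Cxcr4, was at 484 CPM with GCV and 112 CPM with PBS in Pdgfrb-TK mice and 99.4 CPM with D-CAN and 81.4 CPM with PBS in wild-type mice, with Pdgfrb-TK/GCV above the other 3 libraries. Tgfb2, Hbegf, Jag1 and Bmp6 were the other members past 2-fold besides Apln, and were 2.77-fold, 3.5-fold, 3.05-fold and 4.23-fold higher. Against WT/PBS the median was 1.11. Pdgfd was 1.37-fold higher, and Tgfb1, at 169 CPM against 184 CPM, had an interval that crosses no change.

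Matrix proteins that ECs secrete were also compared. Thbs1, the angiogenesis inhibitor thrombospondin-1, was at 1689 CPM with GCV and 311 CPM with PBS in Pdgfrb-TK mice and 828 CPM with D-CAN and 249.9 CPM with PBS in wild-type mice, 5.43-fold (4.36 to 6.82) higher after GCV and 3.31-fold (2.95 to 3.72) higher after D-CAN. Outside the rule it was at 220.2 CPM and 55.8 CPM in the Pdgfrb-TK pair. Fn1, fibronectin, was at 1151 CPM with GCV and 329 CPM with PBS in Pdgfrb-TK mice and 708 CPM with D-CAN and 491 CPM with PBS in wild-type mice and was the only one of 16 basement membrane and matrix genes at least 2-fold higher after GCV, with 0 at least 2-fold lower. Outside the rule Fn1 was at 1350 CPM with GCV and 559 CPM with PBS in Pdgfrb-TK mice. The network collagens Col4a1 and Col4a2 were at 3417 CPM against 4133 CPM and 2511 CPM against 2750.4 CPM.

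Some capillary and lipid-handling genes were lower after GCV. Of 13 capillary genes 10 reached 20 UMIs, 4 were at least 2-fold lower and 0 at least 2-fold higher, with a median log2 ratio of -0.96. Fabp4, a fatty acid binding protein of capillary ECs (chr3:10204088-10208576 in GRCm38), was at 1604 CPM with GCV and 5368 CPM with PBS in Pdgfrb-TK mice and 1597 CPM with D-CAN and 2289 CPM with PBS in wild-type mice, so Pdgfrb-TK/PBS was the highest of the 4 libraries and Pdgfrb-TK/GCV was 3.35-fold (2.99 to 3.76) lower. Cd36, the fatty acid transporter, was at 302 CPM with GCV and 734 CPM with PBS in Pdgfrb-TK mice and 82.3 CPM with D-CAN and 340.1 CPM with PBS in wild-type mice, 2.43-fold (1.85 to 3.23) lower. Gpihbp1 was at 595 CPM with GCV and 1177 CPM with PBS in Pdgfrb-TK mice and 307 CPM with D-CAN and 544 CPM with PBS in wild-type mice, 1.98-fold lower, just short of 2-fold. Cd300lg and Rbp7 were 2.23-fold and 2.14-fold lower. Of 18 lipid uptake genes, which share Fabp4, Cd36 and Gpihbp1 with the capillary list, 10 reached 20 UMIs, 4 were at least 2-fold lower and 0 at least 2-fold higher, with a median of -0.90. Against WT/PBS, from the wild-type mice, the capillary and lipid uptake medians of Pdgfrb-TK/GCV were -0.17 and -0.20, and Gpihbp1 changed direction. In all rule cells against Pdgfrb-TK/PBS, 8 of 10 capillary genes were at least 2-fold lower and 0 higher, with a median of -1.99. Among lipid uptake genes there, 7 of 13 were at least 2-fold lower and 1 higher, with a median of -1.10.

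Lymphatic genes were lower in core cells after GCV, with 5 of 6 measured at least 2-fold lower and 0 higher. The 9 members counted summed to 196 CPM after GCV against 897 CPM. Flt4, the receptor for VEGF-C, gave most of the sum after GCV, at 138 CPM with GCV and 259.6 CPM with PBS in Pdgfrb-TK mice and 405 CPM with D-CAN and 151 CPM with PBS in wild-type mice, 1.88-fold (1.24 to 2.94) lower. Prox1, the transcription factor that specifies lymphatic ECs, was at 0 CPM with GCV and 84.5 CPM with PBS in Pdgfrb-TK mice and 395 CPM with D-CAN and 63.3 CPM with PBS in wild-type mice. With 0 UMIs against 28, it was at least 6.34-fold lower after GCV, taking 3 UMIs in the library as the floor. Reln and Fgl2 were likewise at 0 UMIs after GCV, at least 8.83-fold and at least 4.76-fold lower. Prox1, Reln and Fgl2 reached 20 UMIs through Pdgfrb-TK/PBS alone, so they could only count as lower. The UMIs of Prox1 in Pdgfrb-TK/PBS came from 4 core cells, so these values follow few cells. Over all rule cells the 9 members summed to 250 CPM with GCV and 625 CPM with PBS. In the rule cells outside the core the sum ran the other way, at 275 CPM with GCV and 214 CPM with PBS. Venous genes with at least 20 UMIs numbered 5 of 12, of which Lrg1 and Nr2f2 were at least 2-fold lower, 2.82-fold and 2.57-fold, and 0 at least 2-fold higher. Of 13 arterial genes 9 reached 20 UMIs, and Fbln5 was the only one at least 2-fold lower, 7.47-fold (2.72 to 28.6) lower, with 0 at least 2-fold higher.

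Some p53 targets and immediate early genes were higher in the core ECs of Pdgfrb-TK/GCV. Of 21 p53 targets 10 reached 20 UMIs, 5 were at least 2-fold higher and 0 at least 2-fold lower, with a median log2 ratio of 0.95. Cdkn1a, the p21 inhibitor of the cell cycle, was at 204 CPM with GCV and 66.4 CPM with PBS in Pdgfrb-TK mice and 109 CPM with D-CAN and 273 CPM with PBS in wild-type mice, 3.08-fold (1.81 to 5.37) higher after GCV but highest in WT/PBS. Bax, a promoter of apoptosis, was 2.35-fold and Phlda3 4.63-fold higher. Of 18 immediate early and heat shock genes 13 reached 20 UMIs, 7 were at least 2-fold higher and 0 at least 2-fold lower, with a median of 1.33. For all rule cells the p53 median was 0.05, with 4 of 14 at least 2-fold higher and 2 lower, and the immediate early median 0.52, with 4 of 17 higher and 1 lower. In the other cells of the pair the p53 and immediate early medians were 0.79 and 0.90 in fibroblasts, 0.37 and 0.91 in epithelial cells, and 0.31 and 0.49 in leukocytes. Hspa1b, an inducible Hsp70, was at 187 CPM with GCV and 18.1 CPM with PBS in Pdgfrb-TK mice and 868 CPM with D-CAN and 1949 CPM with PBS in wild-type mice, and outside the rule at 133 CPM, 30.5 CPM, 296 CPM and 602 CPM. The 4 libraries had the same order in the ECs and in the other cells, with Pdgfrb-TK/PBS lowest and WT/PBS highest. Against WT/PBS the median of the immediate early list was -2.17 and that of the p53 targets -0.36, the opposite direction.

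**Figure D3:**
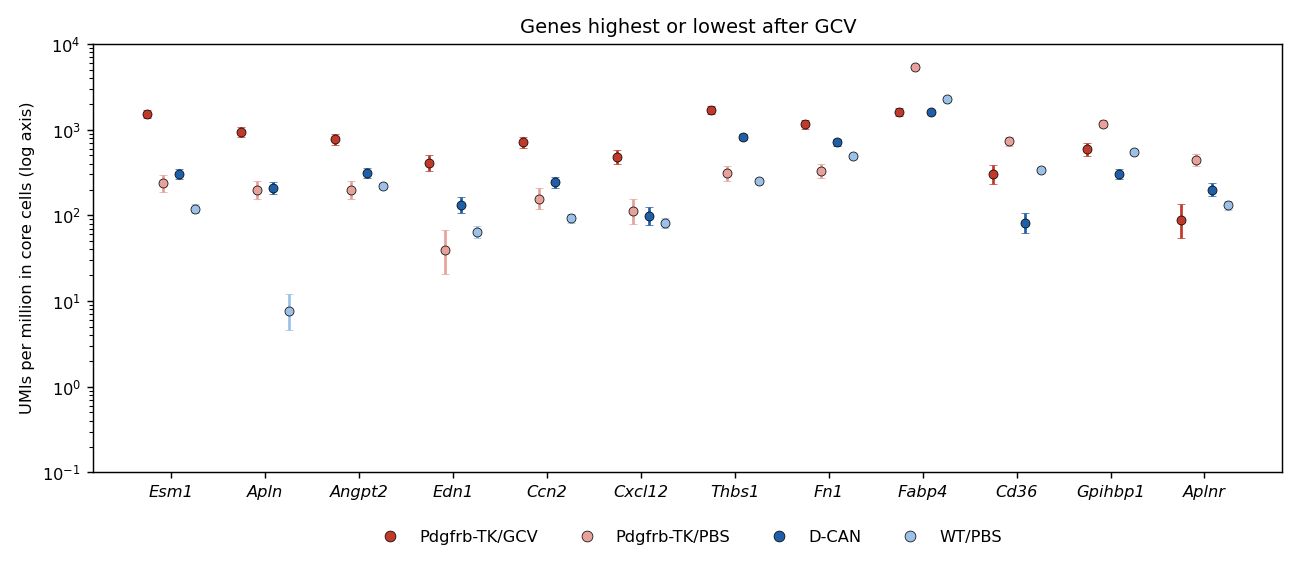
CPM (log axis) of 12 genes in the core cells of each library, with exact Poisson 95% intervals. Pdgfrb-TK/GCV is the highest library for the tip cell genes Esm1, Apln and Angpt2 and for Edn1, Ccn2, Cxcl12, Thbs1 and Fn1, and Pdgfrb-TK/PBS is the highest for Fabp4, Cd36, Gpihbp1 and Aplnr.

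Relative to WT/PBS, the core ECs of D-CAN had higher levels of antigen presentation and interferon-induced genes and of lymphatic genes, and lower levels of chemokines and cytokines. Of 9641 genes with at least 20 UMIs over the pair, 1384 (14.4%) were at least 2-fold higher and 618 (6.41%) at least 2-fold lower, and the median log2 ratio was 0.19. Over all rule cells these were 1692 (14.4%) and 766 (6.54%) of 11719 genes. The log2 ratios below are as measured, so a list at 0.19 lies at the median gene. The pair asks how ECs differ when D-CAN is given, and different clusters fill it, cluster 1 and the lymphatic-like cluster 9 in D-CAN and clusters 2 and 3 in WT/PBS.

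Of 16 MHC class I genes and their partners 16 reached 20 UMIs, 15 were at least 2-fold higher and 0 at least 2-fold lower, with a median log2 ratio of 1.51. B2m, the light chain of MHC class I (chr2:122147686-122153083 in GRCm38), was at 782 CPM with GCV and 649 CPM with PBS in Pdgfrb-TK mice and 2090.0 CPM with D-CAN and 745 CPM with PBS in wild-type mice, 2.8-fold (2.62 to 3.01) higher after D-CAN, with the other 3 libraries alike. Psmb9, a subunit of the immunoproteasome, was at 22.2 CPM with GCV and 24.2 CPM with PBS in Pdgfrb-TK mice and 93.7 CPM with D-CAN and 7.66 CPM with PBS in wild-type mice, 12.2-fold (7.26 to 21.6) higher. Tap1, which carries peptides into the endoplasmic reticulum, was 4.9-fold higher, and Nlrc5, the transactivator of MHC class I genes, 6.06-fold higher. H2-D1 was the exception, at 852 CPM against 772 CPM. MHC class I genes have near-identical relatives, and reads may be split between them.

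Of 32 interferon-induced genes 31 were found and 30 reached 20 UMIs, 19 were at least 2-fold higher and 2 at least 2-fold lower, with a median log2 ratio of 1.25. Iigp1, an interferon-inducible GTPase, was at 26.7 CPM with GCV and 39.2 CPM with PBS in Pdgfrb-TK mice and 521 CPM with D-CAN and 30.6 CPM with PBS in wild-type mice, 17-fold (13.3 to 22.1) higher, and in all cells outside the rule at 134 CPM in D-CAN against 3.08 CPM in WT/PBS. Bst2, the antiviral tetherin, was at 169 CPM with GCV and 145 CPM with PBS in Pdgfrb-TK mice and 385 CPM with D-CAN and 98.7 CPM with PBS in wild-type mice, 3.9-fold (3.27 to 4.65) higher. Cxcl9, the chemokine that draws Cxcr3-bearing T cells (chr5:92321347-92328079 in GRCm38), was at 0 CPM with GCV and 0 CPM with PBS in Pdgfrb-TK mice and 230.0 CPM with D-CAN and 0.403 CPM with PBS in wild-type mice, but its UMIs came from 8 core cells of D-CAN. The members at least 2-fold lower were antiviral genes. Rsad2 was at 4.44 CPM with GCV and 24.2 CPM with PBS in Pdgfrb-TK mice and 2.84 CPM with D-CAN and 124 CPM with PBS in wild-type mice and Ifit1 at 21.3 CPM in D-CAN against 64.1 CPM in WT/PBS, both highest in WT/PBS. Cxcl10 was at 111 CPM against 174 CPM.

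Both lists were also higher in the other cell types of D-CAN. The MHC class I list had a median log2 ratio of 2.11 in epithelial cells, 1.48 in fibroblasts and 1.51 in leukocytes of the same pair, and the interferon list had 2.63, 1.17 and 1.10. The direction was the same against Pdgfrb-TK/PBS, where the medians in D-CAN core ECs were 1.55 for MHC class I and 2.20 for interferon. The core cells of Pdgfrb-TK/PBS had no UMIs of 5 interferon members and 1 MHC class I member, so members could be measured through D-CAN alone. The interferon sum in core cells was 5526 CPM in D-CAN, 2162 CPM in Pdgfrb-TK/PBS and 2379 CPM in WT/PBS. The MHC class I sums were 4944, 1682 and 2220 CPM in the same order. Pdgfrb-TK/PBS also differs from D-CAN in mouse model, so the part of the control library was not tested. Over all rule cells of D-CAN and WT/PBS the medians were 1.13 for MHC class I and 0.77 for interferon. After GCV the MHC class I median was 0.14 over 7 measured genes and the interferon median 0.44 over 7, and in all rule cells they were -0.28 over 8 and -0.51 over 10.

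Promoters of members that moved in each direction are shown with the letters of the interferon-stimulated response element, GAAANNGAAA, searched on both strands in the 300 bases from 250 before to 50 after each gene start (RefSeq, GRCm38.p6). A match was found for 15 of the 24 interferon genes with a promoter in the RefSeq table, 4 of 14 MHC class I genes and 1079 of 27025 genes in all (3.99%). It was found for 0 of the 12 endothelial genes outside the rule that had a promoter there. The 250 bases before the start of B2m and Bst2, higher in D-CAN, and of Rsad2, lower in D-CAN, are given 5′ to 3′ on the strand of the gene, with matches in capitals.
B2m (chr2:122147437-122147686, plus strand): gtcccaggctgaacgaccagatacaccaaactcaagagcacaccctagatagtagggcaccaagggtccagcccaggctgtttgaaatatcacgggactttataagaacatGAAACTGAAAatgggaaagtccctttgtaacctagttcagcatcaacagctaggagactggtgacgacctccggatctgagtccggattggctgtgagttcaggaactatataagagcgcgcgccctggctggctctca
Bst2 (chr8:71537473-71537722, minus strand): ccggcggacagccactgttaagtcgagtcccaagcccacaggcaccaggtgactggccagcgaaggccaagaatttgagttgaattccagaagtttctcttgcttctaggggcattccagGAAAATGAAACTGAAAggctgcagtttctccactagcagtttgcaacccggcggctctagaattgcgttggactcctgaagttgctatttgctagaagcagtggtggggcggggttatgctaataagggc
Rsad2 (chr12:26456453-26456702, minus strand): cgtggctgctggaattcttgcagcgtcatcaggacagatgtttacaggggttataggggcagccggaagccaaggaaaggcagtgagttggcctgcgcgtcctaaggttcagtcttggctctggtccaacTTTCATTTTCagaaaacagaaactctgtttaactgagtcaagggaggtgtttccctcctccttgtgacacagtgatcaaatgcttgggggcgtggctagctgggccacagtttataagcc
The Bst2 promoter holds 2 overlapping matches and the others 1 each, on the opposite strand in Rsad2. A match is a run of letters and not a measured binding site, and genes higher and lower in D-CAN both carry it.

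Chemokine and cytokine genes were lower in D-CAN than in WT/PBS. Of 18 chemokine and cytokine genes and receptors 17 were found and 16 reached 20 UMIs, 9 were at least 2-fold lower and 2 at least 2-fold higher (Cxcl9 and Ackr2), with a median log2 ratio of -1.26. Ccl2, the monocyte attractant, was at 17.8 CPM with GCV and 3.02 CPM with PBS in Pdgfrb-TK mice and 35.5 CPM with D-CAN and 474 CPM with PBS in wild-type mice, 13.4-fold (9.0 to 20.7) lower. Cxcl1, a neutrophil attractant, was at 8.89 CPM with GCV and 3.02 CPM with PBS in Pdgfrb-TK mice and 24.1 CPM with D-CAN and 214 CPM with PBS in wild-type mice, 8.88-fold lower, and Csf3 (G-CSF), the neutrophil growth factor, was at 0 CPM with GCV and 0 CPM with PBS in Pdgfrb-TK mice and 1.42 CPM with D-CAN and 101 CPM with PBS in wild-type mice. Il6 was at 0 CPM with GCV and 0 CPM with PBS in Pdgfrb-TK mice and 15.6 CPM with D-CAN and 123 CPM with PBS in wild-type mice. In each of these 4 genes the WT/PBS library stood alone at the top, and the other 3 lay at or below 35.5 CPM. Of 13 measured adhesion genes 3 were at least 2-fold lower (Icam1, Vcam1 and Sele) and 0 at least 2-fold higher, with a median of 0.15. Icam1, by which leukocytes attach firmly, was at 13.3 CPM with GCV and 24.2 CPM with PBS in Pdgfrb-TK mice and 90.9 CPM with D-CAN and 436 CPM with PBS in wild-type mice, 4.8-fold lower after D-CAN. Sele, the E-selectin on which they roll, was at 24.1 CPM in D-CAN against 141 CPM, 5.86-fold lower. Against Pdgfrb-TK/PBS the chemokine median was 1.27, the opposite direction.

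Hmox1, Mt1 and Slc7a11 were among the 10 lowest ratios of the pair and are given by that rank, since no list of oxidant or metal response genes was counted. Hmox1, heme oxygenase-1, was at 26.7 CPM with GCV and 6.04 CPM with PBS in Pdgfrb-TK mice and 55.4 CPM with D-CAN and 502 CPM with PBS in wild-type mice, 9.06-fold (6.59 to 12.8) lower after D-CAN but 3.0 higher on the log2 scale against Pdgfrb-TK/PBS. The metallothionein Mt1 was at 227 CPM with GCV and 121 CPM with PBS in Pdgfrb-TK mice and 32.7 CPM with D-CAN and 479 CPM with PBS in wild-type mice, 14.7-fold lower. Slc7a11, the cystine transporter, was at 4.44 CPM with GCV and 0 CPM with PBS in Pdgfrb-TK mice and 0 CPM with D-CAN and 85.4 CPM with PBS in wild-type mice, at least 20.1-fold lower against the floor of 3 UMIs. Hspb1, a small heat shock protein, was at 267 CPM with GCV and 66.4 CPM with PBS in Pdgfrb-TK mice and 1441 CPM with D-CAN and 5085 CPM with PBS in wild-type mice. Outside the rule Hmox1 was at 60.2 CPM in D-CAN against 283 CPM in WT/PBS, and Ccl2 at 87.6 CPM and 312 CPM, the same direction as in the ECs.

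**Figure D4:**
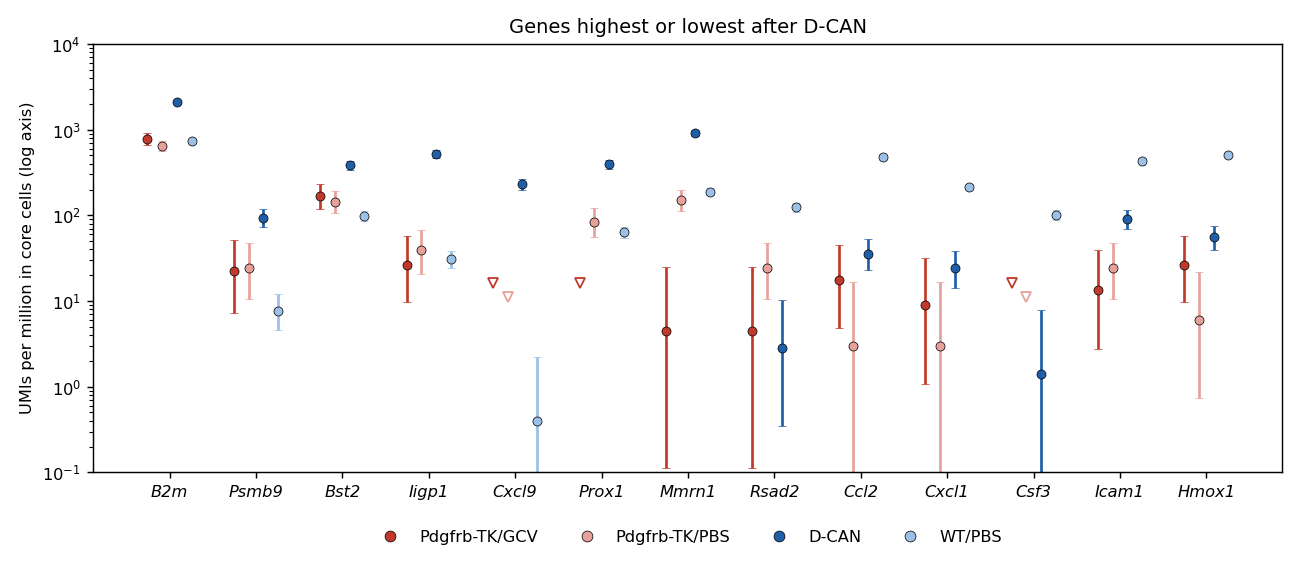
CPM (log axis) of 13 genes in the core cells of each library, with exact Poisson 95% intervals and open triangles at the upper limit where a library has 0 UMIs. D-CAN is highest from B2m to Mmrn1, and WT/PBS is highest from Rsad2 to Hmox1.

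Lymphatic genes were higher in the core cells of D-CAN. Of the 10 members, Ccl21a, a lymphatic chemokine, is listed under 2 gene identifiers and was left out of the counts, and 7 of the other 9 were at least 2-fold higher than in WT/PBS, with a median log2 ratio of 1.73, and of 2.54 against Pdgfrb-TK/PBS. Taking all rule cells, the median was 0.41, with 2 of 9 at least 2-fold higher and 7 of 9 above 0. The identifier of Ccl21a that had UMIs was at 476 CPM with D-CAN and 251 CPM with PBS in the core cells of wild-type mice, and at 0 CPM with GCV and 18.1 CPM with PBS in those of Pdgfrb-TK mice, but over all rule cells it was lower in D-CAN, at 162 CPM, than in WT/PBS, at 201 CPM. Prox1 was 6.24-fold (5.11 to 7.64) higher than in WT/PBS, Lyve1, a hyaluronan receptor, was at 44.4 CPM with GCV and 145 CPM with PBS in Pdgfrb-TK mice and 537 CPM with D-CAN and 153 CPM with PBS in wild-type mice, and Mmrn1 was at 4.44 CPM with GCV and 151 CPM with PBS in Pdgfrb-TK mice and 912 CPM with D-CAN and 188 CPM with PBS in wild-type mice. The UMIs of Prox1 came from 23 of 83 core cells in D-CAN and 39 of 336 in WT/PBS, and in all cells outside the rule Prox1 was at 0.503 CPM and 0.271 CPM. A larger lymphatic part of the core and more lymphatic RNA per cell cannot be told apart in these sums. The core itself was a 3.54-fold lower share of all cells after D-CAN. Of all cells kept, the core cells with Prox1 were 23 of 10178 in D-CAN and 39 of 11627 in WT/PBS, so their number was not higher.

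Of 21 proliferation genes 11 were at least 2-fold higher after D-CAN and 0 at least 2-fold lower, with a median of 1.09. Mcm2, a replication helicase subunit, was at 0 CPM with GCV and 12.1 CPM with PBS in Pdgfrb-TK mice and 31.2 CPM with D-CAN and 6.45 CPM with PBS in wild-type mice, while Mki67, expressed in all cycling cells, was at 31.1 CPM with GCV and 51.3 CPM with PBS in Pdgfrb-TK mice and 125 CPM with D-CAN and 66.1 CPM with PBS in wild-type mice, and 1 cell held 27.3% of its UMIs in D-CAN. Without the core cells that carried 2 or more markers of 1 other cell type, the median was -0.15. After GCV 6 members reached 20 UMIs and 0 were past 2-fold in core cells, while of the 21 measured in all rule cells 12 were at least 2-fold higher, with a median of 1.24.

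Some capillary genes were lower after D-CAN as well. Of the 10 measured, 4 were at least 2-fold lower and 0 at least 2-fold higher, with a median log2 ratio of -0.69, and of -1.84 against Pdgfrb-TK/PBS. Over all rule cells of the pair 6 of 11 were at least 2-fold lower and 0 higher, with a median of -1.30. Cd36 was 4.13-fold (3.16 to 5.49) lower and Cd300lg 3.68-fold (2.6 to 5.38) lower. Fabp4 was 1.43-fold (1.34 to 1.53) lower, but with each cell weighted equally its log2 ratio was 0.01. The GCV and D-CAN pairs share no control library, and their values for the 4 members past 2-fold after GCV were, after D-CAN, -0.52 for Fabp4, -2.03 for Cd36, -1.86 for Cd300lg and -1.58 for Rbp7 on the log2 scale, against -1.74, -1.28, -1.15 and -1.08 after GCV.

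The tip cell list had a median log2 ratio of 0.42 in core cells after D-CAN and 0.41 after GCV. In all rule cells it was -0.31 after D-CAN and -0.11 after GCV. Apln was 27.3-fold (16.8 to 46.6) higher after D-CAN, with WT/PBS the lowest library at 7.66 CPM, and Esm1 was 2.55-fold (2.13 to 3.05) higher. Against Pdgfrb-TK/PBS, D-CAN was 0.07 higher for Apln and 0.38 for Esm1 on the log2 scale. Of the 15 tip cell genes 2 were at least 2-fold higher and Ramp3 was the 1 at least 2-fold lower in core cells, with 1 higher and 4 lower in all rule cells. Eng, a TGF-β coreceptor, was at 1102 CPM with GCV and 903 CPM with PBS in Pdgfrb-TK mice and 733 CPM with D-CAN and 345 CPM with PBS in wild-type mice, and Sox18, a vascular transcription factor, at 97.8 CPM with GCV and 193 CPM with PBS in Pdgfrb-TK mice and 249.9 CPM with D-CAN and 85.4 CPM with PBS in wild-type mice, 2.13-fold (1.9 to 2.37) higher and 2.92-fold (2.38 to 3.59) higher after D-CAN. Of the 17 measured signals to mural cells 5 were at least 2-fold higher and 2 at least 2-fold lower.

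**Figure D5:**
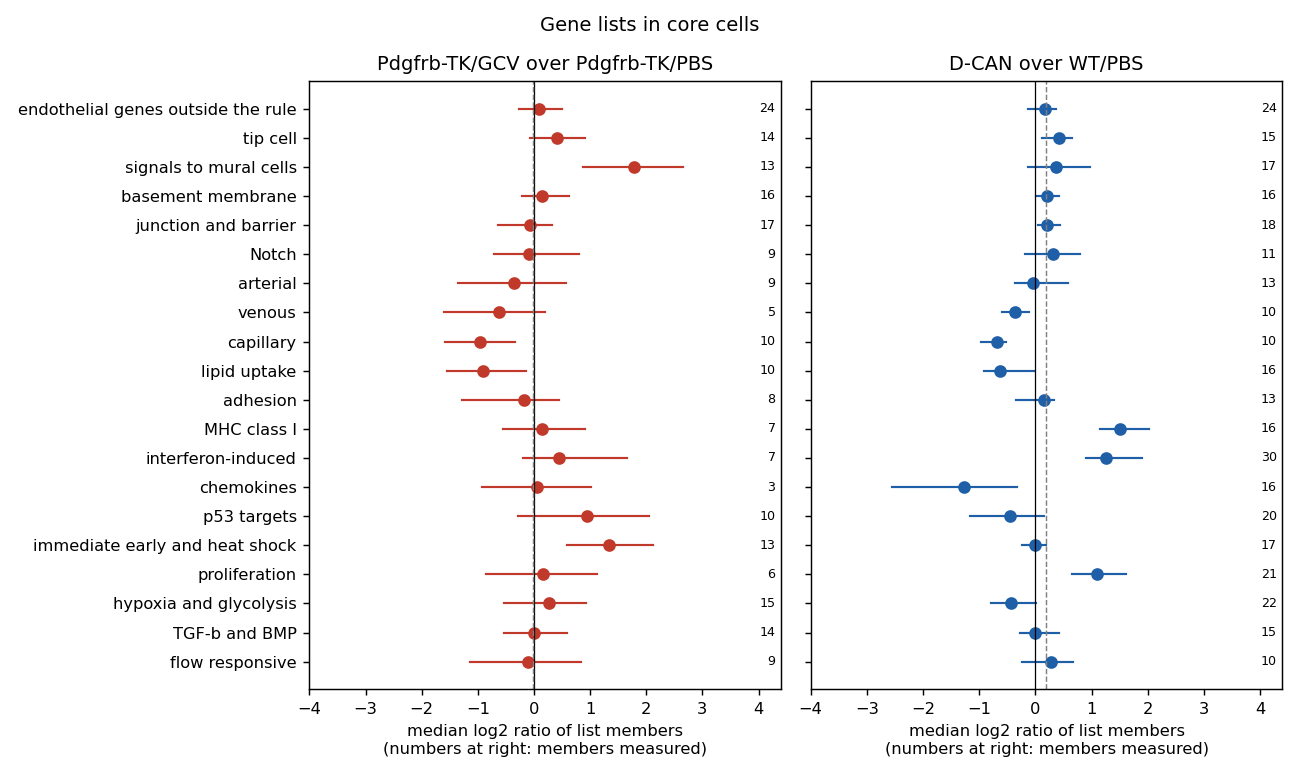
Median log2 ratio of the measured members of 20 gene lists in core cells, left for GCV and right for D-CAN, where the line joins the medians of the members' interval bounds, the dashed line marks the median of all genes and the number at right counts the members measured (4 genes of the rule are among the junction and barrier list). Of the 20 lists plotted, which leave out the lymphatic, MHC class II and endothelial-to-mesenchymal lists among others, signals to mural cells, immediate early genes and p53 targets lie highest after GCV, and MHC class I, interferon-induced and proliferation genes after D-CAN. Capillary and lipid uptake genes lie below 0 in both. So do venous genes (-0.62 after GCV and -0.37 after D-CAN), arterial genes (-0.35 and -0.04) and, barely, TGF-β and BMP genes (-0.003 and -0.003).

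Several lists lay near the median of all genes in the core cells of both pairs. Notch genes had medians of -0.09 after GCV and 0.31 after D-CAN, flow-responsive genes -0.10 and 0.28, and basement membrane genes 0.15 and 0.21. In all rule cells these medians were -0.75 and -0.07 for Notch, -0.34 and -0.39 for flow and -0.38 and -0.26 for basement membrane. The junction and barrier list holds 4 genes of the rule (Cdh5, Cldn5, Esam and Plvap). Without them its medians were -0.09 and 0.47 in core cells, and -0.57 and 0.40 in all rule cells, and with them they were -0.06 and 0.22 in core cells. After D-CAN 4 of the 14 measured outside the rule were at least 2-fold higher and 0 lower, and after GCV 1 of 13 was higher and 1 lower. Of the TGF-β and BMP genes in core cells, 1 of 14 was at least 2-fold higher and 1 lower after GCV, and 1 of 15 higher and 0 lower after D-CAN. Within the Notch list, 2 of 9 core genes, Jag1 and Hes1, were 3.05-fold and 2.56-fold higher after GCV with 0 at least 2-fold lower, whereas in all rule cells 0 of 10 were at least 2-fold higher and 3 lower. After D-CAN, Nrarp and Lfng were 2.11-fold and 2.14-fold higher and Dll1 13.4-fold (4.5 to 65.9) lower, of 11 measured. Adhesion genes had medians of -0.19 and 0.15, and hypoxia and glycolysis genes 0.27 and -0.43. Of the 22 measured hypoxia and glycolysis genes, 7 were at least 2-fold lower and 1 at least 2-fold higher in core cells after D-CAN, but in all rule cells 3 of 23 were lower and 4 higher, with a median of 0.26. Venous genes had a median of -0.37 after D-CAN, with 4 of 10 at least 2-fold lower (Sele, Ackr1, Vcam1 and Ch25h) and Vwf, the platelet adhesion factor, 2.21-fold (1.79 to 2.72) higher. The venous median reversed direction when the PBS libraries were exchanged. Arterial genes were split after D-CAN, with 4 of 13 at least 2-fold higher, Gja5 among them at 44 CPM against 2.82 CPM, and 3 at least 2-fold lower, Mgp among them at 58.2 CPM against 285 CPM. Of 20 measured p53 targets 0 were at least 2-fold higher and 3 at least 2-fold lower after D-CAN, and of 17 immediate early and heat shock genes 0 and 3.

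Further genes among the 10 highest and 10 lowest ratios of each pair were as follows. After GCV, Prnd was 7.73-fold higher, Hspb1 4.01-fold higher, and Ptn, Lgals4, Mest, Cbx3 and P3h2 were 9.17-fold, 5.66-fold, 4.91-fold, 3.4-fold and 3.29-fold lower. Lgals4, like Tff1, is an epithelial gene. After D-CAN, Gm4951, Pkhd1l1, Ifi27l2a and Macrod2 were 24.2-fold, 20.3-fold, 14.1-fold and 13.2-fold higher, and Mt2, Lgals3 and Tacr1 were 20.5-fold, 12.8-fold and 9.61-fold lower. Gm5127 was at 92.3 CPM against 0 CPM, with 52.3% of its UMIs in 1 cell. Hbb-bs, a globin of red cells, was at 187 CPM in Pdgfrb-TK/PBS and had 0 UMIs in the core cells of the other 3 libraries, and 1 cell held 85.5% of it. Acta2, a contractile gene of mural cells, was at 186 CPM in D-CAN against 12.1 CPM in WT/PBS, and 1 cell held 96.2% of it in D-CAN. Ubd was at 90.9 CPM against 0.806 CPM, with 78.1% in 1 cell. Markers of other cell types were present at low sums, whose part in the differences was not tested. Pericyte markers, a list of 14 with Pdgfrb, Cspg4 and Rgs5, summed to 1119.8, 873, 619 and 485 CPM, of which Mcam, an EC gene too, gave the most in each library, and 2, 7, 2 and 0 of the 14 were at 0. Fibroblast markers summed to 124 CPM, 139 CPM, 407 CPM and 469 CPM over 14 genes, of which Pdgfra was at 0 by the rule. Macrophage markers summed to 373 CPM, 293 CPM, 177 CPM and 316 CPM over 15 genes, with Apoe the most abundant in each. T and NK cell markers summed to 4.44 CPM or less in every library, and acinar markers to 0 CPM, 81.5 CPM, 105 CPM and 2.82 CPM.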

How the data were processed

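Per the files' headers, the authors aligned the reads and counted UMIs per gene and cell with Cell Ranger (7.0.0), while the study's methods name an earlier release, and the submitters' processing notes name STAR 2.6 and mm10. The deposited values were raw counts of UMIs, filtered to cells, for 4 libraries of 84020317 to 155408336 UMIs and 32285 genes. Cells with fewer than 200 genes were left out, no doublet caller was run and doublets were kept. UMIs were summed per library and cell set, scaled to CPM, and compared as log2 ratios with a pseudocount of 1 CPM. Intervals are exact (Poisson, Clopper-Pearson, and conditional binomial for ratios), at 95%, and cover counting error only, since UMIs of 1 pooled library are not replicates. For a list, the bounds are the medians of its members' interval bounds and are not an interval of the list median. With 1 library per condition, no test across genes was run. At least 2-fold was called past the fold. A list member was measured with at least 20 UMIs over the pair. Rule cells were clustered with scanpy 1.11.5 (2000 variable genes, 10 components, 20 neighbors, Leiden resolution 0.8). Python 3.11.15, numpy 2.4.6, pandas 2.3.3 and scipy 1.17.1 were used, and the interval code was tested on simulated data.

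The members and gene lists were chosen with earlier results of these data known. The core set was added after the data were seen. Genes were named by rule: the rule genes, list members with the most UMIs or the largest ratios, the 10 highest and 10 lowest ratios per pair among genes with at least 50 UMIs and 50 CPM, the 20 most enriched genes, and the leading genes of clusters. Further list members were named after their values were seen, and some genes that the rule names are not reported here. Of the alternatives tried, the closing section gives the effect.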

Additional observations from a re-analysis of the deposited data

Results flagged for a closer look

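The D-CAN and WT/PBS libraries list 5 reporter features, which the comparisons did not use and which the Pdgfrb-TK libraries do not list. GFPcds and Tdtomato held nearly all of their UMIs, GFP and GFP.rev had 0, and GFPcds.rev had 3 UMIs after D-CAN and 13 in its control. In D-CAN the endothelial-rule cells held 29 UMIs of GFPcds (13.2 CPM) and 37 UMIs of Tdtomato (16.8 CPM), against 4.51 CPM and 5.02 CPM in all other cells of the library. In WT/PBS the rule cells held 234 UMIs of GFPcds (58.0 CPM) and 338 UMIs of Tdtomato (83.8 CPM), against 11.8 CPM and 9.83 CPM in the other cells. The labels used here do not say which cells or mice carried a reporter. Its source was not tested.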

How the results depend on the processing

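No paired analysis was possible because each condition has 1 library. For the same reason no library could be left out, and the Pdgfrb-TK/GCV values rest on 35 core cells. With the PBS libraries exchanged, the ratio of rule-cell shares was 0.133 for Pdgfrb-TK/GCV and 0.892 for D-CAN, and of core-cell shares 0.0986 and 0.805. Under the same exchange, counts of genes at least 2-fold higher and lower after GCV were 1316 and 1119 in rule cells and 1128 and 1290 in core cells, and after D-CAN 819 and 328 in core cells. With no minimum count they were 3128 and 2369 (rule) and 2392 and 2746 (core) after GCV, 3052 and 1759 (core) after D-CAN, and 1243 lower (rule) after D-CAN. A pseudocount of 10 CPM gave 322 and 334 (rule) after GCV, and 557 and 315 (rule) and 672 and 278 (core) after D-CAN. Leaving out cells with markers of 1 other type gave 179 and 226 (rule) after GCV, and 873 (rule) and 852 (core) higher after D-CAN. In rule cells after GCV, a minimum of 4 rule genes gave 308 and 309, of 5 rule genes 306 higher, and the core set 266 and 266. Leiden resolution 0.4 gave 7 clusters.

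For a list, the interval used here runs between the medians of its members' bounds and is not an interval of the list median. Among the lists of endothelial and response genes and 20 of the named genes, directions in core cells whose interval excluded 0 and that reversed were as follows, as log2 ratios or list medians. With the PBS libraries exchanged they were -2.17 (immediate early), -0.12 (endothelial-to-mesenchymal) and 0.13 (Gpihbp1) after GCV, and after D-CAN -0.13 (tip cell), 0.70 (venous), -0.37 (basement membrane), -0.080 (junction and barrier), 1.27 (chemokines), -0.018 (checkpoint), -0.22 (angiopoietin and Tie), 3.18 (Ccl2), 3.0 (Hmox1) and -0.13 (Pdgfb). Over all rule cells they were, after D-CAN, -0.31 (tip cell), -0.26 (basement membrane), -0.14 (MHC class II), -0.0081 (checkpoint), -0.59 (angiopoietin and Tie), -0.31 (Angpt2) and -0.34 (Ccn2). The angiopoietin and Tie and the junction and barrier lists hold 1 and 4 genes of the rule. Median-of-ratios size factors gave -0.0097 for basement membrane and -0.0083 for junction and barrier, weighting each cell equally gave 0.010 for Fabp4, and leaving out cells with markers of 1 other type gave -0.15 for proliferation, all after D-CAN. The cause was not tested. The core set, the minimum of 5 rule genes, the use of every other setting in core cells and the removal of each gene's top cell were chosen after seeing the data. Of the other settings in core cells, 198 gene ratios stayed within the interval of their first value, and 364 list medians within the medians of their members' bounds. Another 80 gene ratios and 46 list medians moved beyond these without such a reversal.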

Other observations

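Other lists in the core cells are given as values. MHC class II genes, which present antigen to helper T cells, had 4 of 7 members measured after D-CAN, of which H2-Ab1 and H2-Eb1 were at least 2-fold higher, with a median log2 ratio of 1.35, and 0 of 7 reached 20 UMIs after GCV. In all rule cells of the D-CAN pair the direction turned, with 1 of 6 at least 2-fold higher, 2 lower and a median of -0.14. Of 5 measured checkpoint genes Tnfsf10, the death ligand TRAIL, was the 1 past 2-fold after D-CAN, with a list median of 0.85 in core cells and -0.0081 in all rule cells. Scavenger and fenestration genes had 5 of 9 members at least 2-fold higher and 0 lower after D-CAN, Stab1 and Lyve1 among them, and both also mark lymphatic ECs, but in all rule cells 0 of 10 were past 2-fold in either direction, with a median of 0.23 against 1.01 in the core. Plvap, a gene of the rule, is 1 of these members, and without it 5 of 8 were higher in the core and 0 of 9 in all rule cells, with medians of 1.10 and 0.26. VEGF receptors and targets had 3 of 14 at least 2-fold higher and 0 lower after D-CAN (Flt4, Vegfb and Esm1), and 2 of 10 higher after GCV (Rcan1 and Esm1). In all rule cells 1 of 15 was higher and 1 lower after D-CAN, and 2 of 14 higher and 3 lower after GCV. Of 4 measured angiopoietin and Tie genes other than Tie1, a gene of the rule, Angpt2 was the 1 past 2-fold after GCV, and 0 were after D-CAN, with medians of 0.085 and 0.37, while in all rule cells the medians were -0.85 and -0.45. The 13 mitochondrially encoded genes had median log2 ratios of 0.49 after GCV and -0.08 after D-CAN, with 0 past 2-fold in either pair, and of 0.43 and 0.28 in all rule cells. These lists were read beside the shares of all genes past 2-fold in core cells, 5.41% in each direction after GCV, and 14.4% higher and 6.41% lower after D-CAN.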
